A study of Rattus norvegicus with 24 samples.

Results

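The transcriptome of the dorsal root ganglia (DRG), the clusters of sensory nerve cell bodies beside the spinal cord, was compared between the rats that carry replicate numbers 5-8 in the sample titles and those that carry replicate numbers 1-4. The rule took all 24 rats of the series, 12 on each side, with 4 rats of each number set in each of the 3 groups. The group was a covariate in the main fit, and some alternative fits had no group term. The split was selected on measured expression levels of these same rats, and which genes were looked at for it is not given. The differences between the number sets are therefore given as a description, with no test, and "called" below means only that a gene had an adjusted p under 0.05 in edgeR and was chosen for description.

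All rats were female Sprague-Dawley, 20 weeks old at collection, and the ganglia were those of lumbar levels 4 and 5. The Sham-vehicle group had sham surgery and vehicle, the OVX-vehicle group had ovariectomy (OVX, removal of the ovaries) and vehicle, and the OVX-TPTD group had ovariectomy and teriparatide (TPTD), a fragment of human parathyroid hormone. Surgery was done at 12 weeks of age. Teriparatide was injected in doses of 30 µg per kg of body weight, 3 doses per week over 4 weeks. The rats lived under alternating light and dark of 12 h each, and food was withheld for 6 h or more before the end of the experiment. The surgery label of OVX-vehicle replicate 1 reads Sham although its title reads OVX. This rat was kept in the OVX-vehicle group. The clock time, the order and the day of collection are not given in the sources used here, nor is an extraction or sequencing batch, so these cannot be told apart from the replicate number.

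Of the 24 genes called between the number sets, 10 are members of lists of circadian clock genes and 14 are in none of these lists. In mammals, the activators Arntl (also called Bmal1) and Clock, or its relative Npas2, form pairs that bind E-box DNA elements and raise transcription of the Per, Cry and Nr1d genes. PER and CRY proteins then hold the activators back, and the nuclear receptors NR1D1 and NR1D2 (REV-ERB) repress Arntl through RORE elements. The clock also drives output genes such as Dbp and Tef, transcription factors that bind D-box elements. Dbp, Nr1d1 and the Per genes on one side and Arntl and Npas2 on the other are known to peak at opposite times of day in most rat and mouse tissues.

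The start regions of 3 of these genes are shown because each holds, in the bases just before the annotated start, an element of the loop described above. Sequences are from RefSeq, build GRCr8, written 5′ to 3′ in the direction of the gene, and the capitals mark the element named.
Ciart: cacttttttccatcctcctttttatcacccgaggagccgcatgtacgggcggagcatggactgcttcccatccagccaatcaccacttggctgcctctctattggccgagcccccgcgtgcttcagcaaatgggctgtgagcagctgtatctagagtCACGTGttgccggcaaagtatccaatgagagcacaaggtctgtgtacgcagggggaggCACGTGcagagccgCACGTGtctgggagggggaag
Per2: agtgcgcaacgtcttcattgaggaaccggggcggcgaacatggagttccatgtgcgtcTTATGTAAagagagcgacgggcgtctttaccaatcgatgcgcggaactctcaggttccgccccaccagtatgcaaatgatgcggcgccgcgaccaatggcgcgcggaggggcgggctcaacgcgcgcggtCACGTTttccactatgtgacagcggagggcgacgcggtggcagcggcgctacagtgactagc
Arntl: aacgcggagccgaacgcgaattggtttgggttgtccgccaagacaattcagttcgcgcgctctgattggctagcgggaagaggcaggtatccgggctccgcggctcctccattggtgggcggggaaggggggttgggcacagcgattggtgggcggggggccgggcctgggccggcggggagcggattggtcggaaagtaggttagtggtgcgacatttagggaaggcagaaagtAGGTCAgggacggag

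The Ciart stretch (chr2:186112247-186112496, minus strand) holds the E-box CACGTG 3 times, starting 93, 35 and 21 bases before the start. The Per2 stretch (chr9:99496994-99497243, minus strand) holds the D-box TTANGTAA 192 bases and the E-box variant CACGTT 62 bases before the start. The Arntl stretch (chr1:176766078-176766327, plus strand), listed as Bmal1 in RefSeq, holds the RORE core AGGTCA 15 bases before the start.

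Of the 24 genes called between the number sets, 21 had a RefSeq start region of 300 bases (250 before and 50 after the start), and both strands of each were searched. CACGTG was found in 3 of the 21 (Tef, Ciart and Bhlhe40, all higher in numbers 5-8) and in 6.65% of all 27457 start regions. CACGTT was found in 4 (Nr1d1, Per2, Iscu and Gpsm2) and in 4.93% of all, and TTANGTAA in Per2 alone of the 21 and in 2.19% of all. AGGTCA was found in 15.7% of all start regions. It was in 2 of the 11 matched genes that were higher in numbers 5-8 (Nr1d2 and Por). It was also in 7 of the 10 that were lower (Arntl, Fdx1, Scand1, Gpsm2, Cntf, Fgf7 and Cox5a). A longer form of this element, with an AT-rich flank before the same core, was searched as well. It was found in Arntl alone of the 21 and in 0.67% of all. The other genes named for AGGTCA held the core without this flank. The regions of Dbp and Per3 held none of these letters, which says only that they are not in this window. A match is a description of the letters and not evidence of binding.

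The deposited counts summed to 15573454 to 19069898 reads per rat in numbers 1-4 and 16291135 to 18979253 in numbers 5-8. No rat stood apart by its depth, and TMM factors (edgeR's correction for library composition) lay between 0.967 and 1.016. Sham-vehicle replicate 2 had 17.8% of its reads in the 50 most abundant genes, against 15.2% to 16.2% in the other rats. Markers of sensory neurons were abundant in all rats, with a summed level of 15490 to 18380 FPKM (fragments per kilobase of transcript, scaled to the mapped reads) in numbers 1-4 and 16660 to 19050 FPKM in numbers 5-8. In such whole-tissue samples, fewer cells of a type and less RNA per cell cannot be told apart.

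Of 12833 genes tested, 24 (0.187%) were called between numbers 5-8 and 1-4, 12 higher (0.0935%) and 12 lower (0.0935%) in numbers 5-8. This contrast is the one that defined the comparison, so nothing is read from these shares. The median log2 difference over all genes was 0.0019. Of the 40 tested members of 4 lists of clock genes (activators, repressors, outputs, and kinases and ligases that act on clock proteins), 10 were called, 9 higher and 1 lower. The last gene called was Cdkn1a, at -0.49 ± 0.11 (log2, SE).

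Dbp, a transcription factor and a direct output of the clock, separated the number sets completely. Its level ranged from 3.84 to 9.82 FPKM (median 6.78) in the 12 rats of numbers 1-4 and from 10.4 to 17.8 FPKM (median 15.2) in the 12 rats of numbers 5-8. It was the only gene of the 12833 (0.00779%) whose 2 sets of 12 did not overlap. In the Sham-vehicle rats it stood at 4.83, 4.09, 4.87 and 8.66 FPKM in replicates 1 to 4 and at 13.9, 13.8, 10.4 and 16.9 FPKM in replicates 5 to 8. In the OVX-vehicle rats it stood at 3.84, 6.87, 8.35 and 6.31 FPKM against 11.7, 13.4, 16.7 and 17.1 FPKM, and in the OVX-TPTD rats at 7.10, 8.04, 6.69 and 9.82 FPKM against 14.8, 17.8, 15.59 and 16.8 FPKM. The fitted difference was 1.18 ± 0.11 (log2, SE) and stayed between 1.12 and 1.25 when any 1 rat was left out.

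The activators were lower in numbers 5-8 or close to equal. Arntl, which pairs with CLOCK or NPAS2, ranged from 5.26 to 9.22 FPKM (median 7.09) in numbers 1-4 and from 3.99 to 5.61 FPKM (median 4.502) in numbers 5-8, a difference of -0.60 ± 0.080. The sets overlapped over all 12 rats but not within any group. Npas2, the partner that can take the place of CLOCK, was scarce, at 0.175 to 0.922 FPKM (median 0.499) against 0.0784 to 0.543 FPKM (median 0.256). Its difference of -0.94 ± 0.23 rested on a mean of 32.8 reads per rat and was not called. Clock itself stood at 6.98 to 8.82 FPKM against 6.40 to 8.16 FPKM (-0.16 ± 0.042, not called), and Arntl2, a relative of Arntl, at 0.868 to 2.22 FPKM against 0.8294 to 2.05 FPKM (0.04 ± 0.16). Of the 7 activators listed, 4 passed the filter on low counts, 1 was called and 3 had a lower fitted level.

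**Figure D1:**
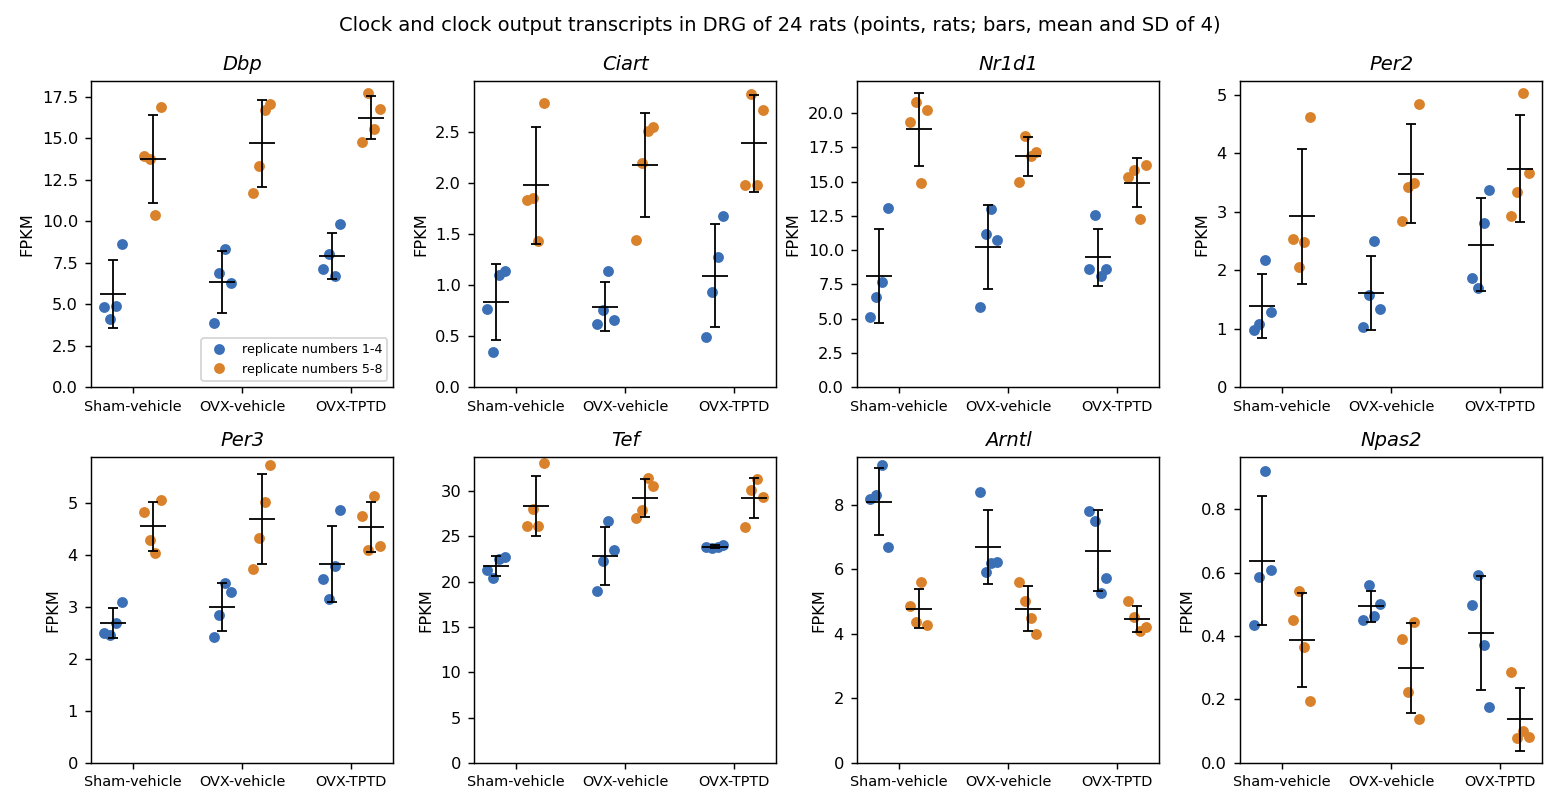
Levels (FPKM, y axis) of 8 clock and clock output transcripts in each rat, by group (x axis) and replicate number (blue, 1-4; orange, 5-8), with the mean and SD of 4 rats. Every Dbp value of numbers 5-8 (10.4 to 17.8 FPKM) lies above every value of numbers 1-4 (3.84 to 9.82 FPKM), and Arntl lies lower in numbers 5-8 within each group.

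Among the repressors, 6 of 10 tested members were called, all higher in numbers 5-8, and 9 of 10 had a higher fitted level (median 0.36, against 0.0019 over all genes). Ciart, a repressor of the CLOCK and BMAL1 pair whose start region with 3 E-boxes is shown above, ranged from 0.340 to 1.68 FPKM (median 0.849) in numbers 1-4 and from 1.43 to 2.87 FPKM (median 2.09) in numbers 5-8. Its difference of 1.27 ± 0.18 was the largest of the 24 called. The 2 sets overlapped only through OVX-TPTD replicate 4 at 1.68 FPKM on one side and Sham-vehicle replicate 7 and OVX-vehicle replicate 5, at 1.43 and 1.44 FPKM, on the other.

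Nr1d1, the nuclear receptor REV-ERBα that represses Arntl, stood at 5.13 to 13.1 FPKM (median 8.59) in numbers 1-4 and 12.3 to 20.8 FPKM (median 16.6) in numbers 5-8, a difference of 0.87 ± 0.13. This gene overlaps the end of Thra on the other strand in mammals, and whether the authors counted by strand is not given in the sources used here. Its relative Nr1d2 differed less, at 12.5 to 21.6 FPKM against 17.9 to 25.4 FPKM (0.35 ± 0.054).

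The period genes, whose proteins join CRY in the complex that holds the activators back, did not differ alike. Per2 ranged from 0.978 to 3.38 FPKM (median 1.64) in numbers 1-4 and from 2.05 to 5.03 FPKM (median 3.38) in numbers 5-8, a difference of 0.95 ± 0.17. Per3 stood at 2.43 to 4.86 FPKM against 3.72 to 5.73 FPKM (0.55 ± 0.089). Per1, which also responds to glucocorticoids and to neuronal activity, was not called, at 8.16 to 14.8 FPKM against 6.18 to 15.7 FPKM (0.21 ± 0.14). The lowest and the highest Per1 values of all 24 rats were both in numbers 5-8. There, replicate 5 was the lowest in each group, at 6.18 FPKM in Sham-vehicle, 8.47 FPKM in OVX-vehicle and 7.71 FPKM in OVX-TPTD. Replicates 6 to 8 stood at 11.9 to 15.7 FPKM. This was described with the values in view and was not tested, and the share of all genes with such an order was not counted.

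Bhlhe40, a repressor that competes for E-boxes, stood at 5.37 to 7.64 FPKM in numbers 1-4 and 6.88 to 10.45 FPKM in numbers 5-8 (0.37 ± 0.066). The cryptochromes were not called, with differences of -0.05 ± 0.094 for Cry1 and 0.10 ± 0.044 for Cry2, and neither was Timeless at 0.08 ± 0.10.

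Of the 17 outputs tested, 3 were called, and 12 had a higher and 5 a lower fitted level in numbers 5-8 (median 0.032). Besides Dbp these were Tef, another factor of the same family, and Por. Tef stood at 19.01 to 26.7 FPKM (median 23.1) in numbers 1-4 and 26.1 to 33.1 FPKM (median 28.7) in numbers 5-8, a difference of 0.35 ± 0.046, with a single rat of numbers 1-4, OVX-vehicle replicate 3, above the lowest of numbers 5-8. Por encodes the reductase that passes electrons to cytochrome P450 enzymes and stood at 17.5 to 24.9 FPKM against 21.2 to 31.5 FPKM (0.26 ± 0.052). Nfil3, a repressor at the D-boxes that Dbp and Tef activate, had a lower fitted level (-0.35 ± 0.11), and Wee1, a cell cycle kinase, a higher one (0.22 ± 0.069), but neither was called. Within numbers 5-8, Wee1 rose at each step from replicate 5 to replicate 8 in every group. It went from 7.77 to 10.7 FPKM in Sham-vehicle, 7.60 to 10.8 FPKM in OVX-vehicle and 8.05 to 11.3 FPKM in OVX-TPTD. Numbers 1-4 showed no such shared rise. Scand1, a called gene outside the clock lists, fell at each step from replicate 5 to replicate 8 in every group. It went from 13.7 to 8.05 FPKM in Sham-vehicle, 16.1 to 9.08 FPKM in OVX-vehicle and 15.2 to 9.07 FPKM in OVX-TPTD. These orders were not tested, and the share of all genes with such an order was not counted. None of the 10 kinases and ligases, among them the casein kinases Csnk1d and Csnk1e that mark PER proteins for destruction, was called (median 0.059).

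The other 14 called genes are in none of the clock lists. Adamts15, a protease that cleaves matrix proteoglycans, was the most separated of them, at 2.97 to 5.14 FPKM (median 3.93) in numbers 1-4 and 2.03 to 3.26 FPKM (median 2.72) in numbers 5-8, a difference of -0.55 ± 0.074. Higher in numbers 5-8 were Angptl2, a secreted angiopoietin-like protein (0.32 ± 0.053), Timp3, an inhibitor of metalloproteinases (0.20 ± 0.035), and Pcdha1, a protocadherin of neuronal surfaces (0.50 ± 0.099). Pcdha1 shares its last exons with the other genes of its cluster, so its counts may include theirs.

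Lower in numbers 5-8 were several genes for secreted or surface proteins. Cntf, a neurotrophic factor of Schwann cells, ranged from 47.4 to 79.8 FPKM (median 56.2) in numbers 1-4 and from 33.5 to 67.0 FPKM (median 41.8) in numbers 5-8 (-0.43 ± 0.090). Cx3cl1, the chemokine fractalkine, differed by -0.46 ± 0.092, and Fgf7, of the fibroblast growth factor family, by -0.33 ± 0.070. Cd93, a receptor of endothelial and myeloid cells, differed by -0.42 ± 0.090. Iscu (-0.16 ± 0.031) and Fdx1 (-0.38 ± 0.077), both of mitochondrial iron-sulphur metabolism, and Cox5a (-0.16 ± 0.035), a subunit of cytochrome c oxidase, were lower as well. So were Cdkn1a, the cell cycle inhibitor p21 (-0.49 ± 0.11), Gpsm2, which orients the spindle (-0.15 ± 0.032), and Scand1 (-0.49 ± 0.10). In 20 of the 24 called genes, all 12 rats of numbers 5-8 lay on one side of the median of numbers 1-4, as they did in 136 (1.06%) of all genes, and nothing is read from this since the same values chose the genes.

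The genes were called over the rats of all 3 groups together, so a shared direction among the groups follows in part from that choice and is no independent support. All 24 called genes had the same direction in all 3 groups, down to 0.04 ± 0.049 for Timp3 in OVX-TPTD. The fits within Sham-vehicle, OVX-vehicle and OVX-TPTD alone called 0, 0 and 1 gene, the last being Dbp. The number sets did not overlap, in the same direction in all 3 groups, for 5 genes of 12833 (0.039%), namely Dbp, Arntl, Ciart, Tef and Adamts15. At least 2 groups were so separated for 51 genes (0.397%). Within single groups the share of genes whose 4 rats against 4 did not overlap was 2.52% (324 genes) in Sham-vehicle, 6.23% (800 genes) in OVX-vehicle and 1.65% (212 genes) in OVX-TPTD. Across all 12833 genes, which are not independent replicates, the difference in one group correlated weakly with that in another, with Pearson's r of 0.14 for Sham-vehicle and OVX-vehicle, 0.11 for OVX-vehicle and OVX-TPTD and 0.019 for Sham-vehicle and OVX-TPTD.

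**Figure D2:**
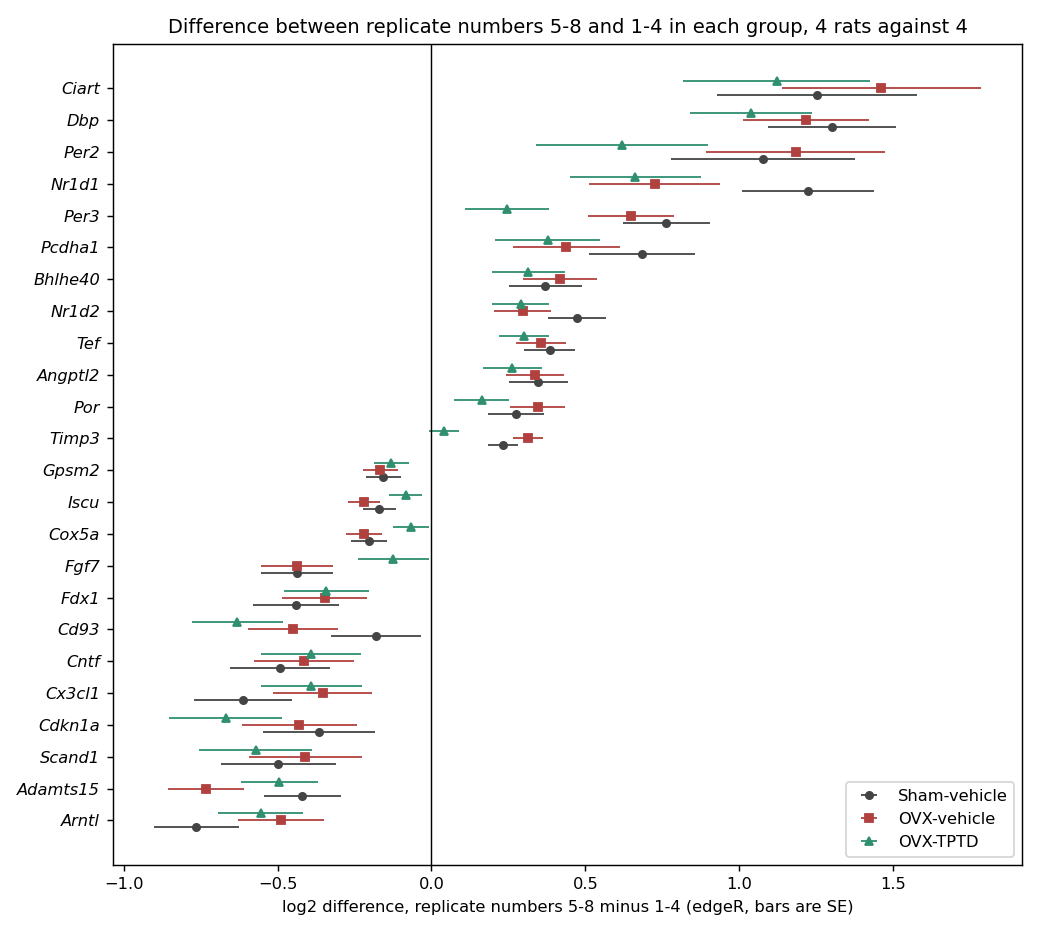
Log2 difference between replicate numbers 5-8 and 1-4 (x axis, edgeR, bars are SE) for the 24 called genes (y axis) within each group (circles, Sham-vehicle; squares, OVX-vehicle; triangles, OVX-TPTD), 4 against 4 in each. All 72 points lie on the side of 0 given by the whole comparison.

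Whether the size of the difference depended on the group was tested with the interaction of group and replicate number, which the rule did not use. No gene was called (edgeR's quasi-likelihood test, Benjamini-Hochberg adjustment), 434 of 12833 (3.38%) had an unadjusted p under 0.05, and DESeq2 called 1. The smallest adjusted p was 0.61, for Tmc2, a channel-like protein of sensory hair cells. Its level was 0.810 to 0.827 FPKM in 3 of the 4 OVX-TPTD rats of numbers 1-4, and 1.18 and 1.27 FPKM in Sham-vehicle replicates 6 and 8, and 0.357 FPKM or less in the other 19 rats. Tmc2 was also the gene that DESeq2 called (adjusted p 0.00367).

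None of the 24 called genes had an interaction adjusted p below 0.99 (edgeR). For Per3 the fitted differences were 0.76 ± 0.14 in Sham-vehicle, 0.65 ± 0.14 in OVX-vehicle and 0.25 ± 0.14 in OVX-TPTD, with an unadjusted p of 0.0361 for the interaction (edgeR). Timp3 had 0.23 ± 0.049, 0.31 ± 0.049 and 0.04 ± 0.049 in the same order. For Dbp the 3 values were 1.30 ± 0.21, 1.22 ± 0.20 and 1.04 ± 0.20. An adjusted p that misses the threshold does not show that the groups differed alike.

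Within each number set, the level of Dbp was set beside those of the other 9 called clock genes over its 12 rats, on log2(FPKM + 0.1). The genes were chosen with their values in view, so the correlations are a description with no test. In numbers 1-4, Pearson's r was 0.82 with Per3 (Spearman's rho 0.75), 0.82 with Tef (rho 0.78), 0.78 with Nr1d1 (rho 0.79), 0.77 with Nr1d2 (rho 0.64), -0.68 with Arntl (rho -0.64), 0.64 with Per2 (rho 0.62) and 0.64 with Ciart (rho 0.64). It was 0.34 with Por (rho 0.098) and 0.27 with Bhlhe40 (rho 0.38).

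In numbers 5-8, r was 0.93 with Ciart (rho 0.90), -0.84 with Arntl (rho -0.71), 0.76 with Nr1d2 (rho 0.79), 0.75 with Tef (rho 0.69) and 0.64 with Per2 (rho 0.66). It was 0.57 with Per3 (rho 0.49), 0.28 with Bhlhe40 (rho 0.29), 0.12 with Nr1d1 (rho 0.17) and 0.076 with Por (rho 0.11). Thus 7 of the 9 genes in numbers 1-4 and 5 of the 9 in numbers 5-8 had an r of 0.6 or more in size. Of all 39 other clock genes tested these were 8 and 5, and of the 12832 other genes 2.99% and 2.44%.

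Without the 2 rats farthest from the median of Dbp, r over 10 rats in numbers 1-4 was 0.74 with Per3, 0.60 with Tef, 0.68 with Nr1d1, 0.78 with Nr1d2, -0.58 with Arntl, 0.45 with Per2, 0.41 with Ciart, 0.034 with Por and 0.32 with Bhlhe40. In numbers 5-8 it was 0.85 with Ciart, -0.61 with Arntl, 0.72 with Nr1d2, 0.72 with Tef, 0.61 with Per2, 0.22 with Per3, 0.21 with Bhlhe40, -0.31 with Nr1d1 and 0.14 with Por. With the group means removed, r over the 12 rats lay between 0.33 and 0.84 for the 8 genes other than Arntl in numbers 1-4 and between 0.43 and 0.92 in numbers 5-8, and was -0.63 and -0.85 for Arntl.

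**Figure D3:**
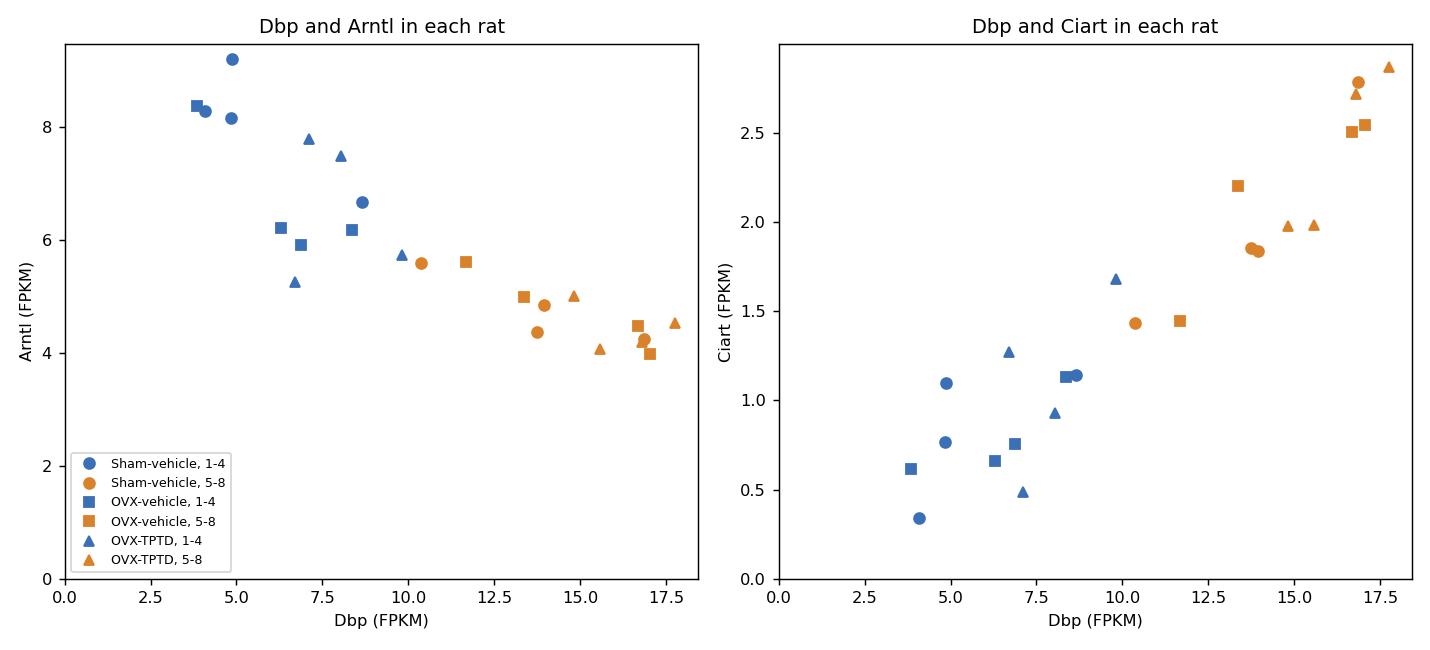
Level of Arntl (left) and Ciart (right) against Dbp (all in FPKM) in each of the 24 rats, with colour for the replicate number (blue, 1-4; orange, 5-8) and shape for the group. On log2(FPKM + 0.1), Pearson's r with Dbp over the 12 rats was -0.68 for Arntl and 0.64 for Ciart in numbers 1-4 and -0.84 and 0.93 in numbers 5-8, given with no test.

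The comparisons of the study were then fitted with the number set as a covariate. Between OVX-vehicle and Sham-vehicle, 0 of the 40 clock genes were called (3 had an unadjusted p under 0.05 in edgeR, smallest adjusted p 0.825), with log2 differences from -0.39 to 0.27. Between OVX-TPTD and OVX-vehicle 0 were called as well (4 unadjusted, smallest adjusted p 0.992), with differences from -0.61 to 0.31. Over all genes, edgeR called 2 (0.0156%) and 0, with unadjusted p under 0.05 in 688 and 518 genes. Without the number set in the fit it called 2 and 0, with 632 and 487 unadjusted, and DESeq2 with the number set called 12 and 2.

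The called clock genes were chosen for differing between the number sets, so a smaller SE between groups with the number set in the fit follows from that choice. The SE of the difference between OVX-vehicle and Sham-vehicle was 0.31 for Dbp without the number set and 0.14 with it, 0.36 and 0.22 for Ciart, 0.25 and 0.16 for Nr1d1 and 0.17 and 0.098 for Arntl. For Per1 it was 0.171 and 0.167, and for Tac1, which is not a clock gene, 0.0538 and 0.0533. The Dbp difference itself was 0.12 ± 0.14 between OVX-vehicle and Sham-vehicle (adjusted p 0.862, edgeR) and 0.23 ± 0.14 between OVX-TPTD and OVX-vehicle (adjusted p 0.992, edgeR).

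The 2 genes called between OVX-vehicle and Sham-vehicle were C1ql1 and Tac1. C1ql1, a secreted synaptic organiser, ranged from 0.293 to 1.47 FPKM in the 8 Sham-vehicle rats and from 0 to 0.133 FPKM in the 8 OVX-vehicle rats, which did not overlap (fitted log2 difference -4.40 ± 0.53, adjusted p 0.000131, edgeR, from a mean of 6.75 reads per rat). It was at 0 in OVX-vehicle replicate 1, the rat with conflicting labels, as in 3 other OVX-vehicle rats. Tac1, the precursor of substance P, was 0.32 ± 0.053 higher after ovariectomy with the number set in the fit (adjusted p 0.016) and gave an adjusted p of 0.0152 without it (edgeR).

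Within numbers 1-4, Tac1 stood at 191, 179, 177 and 178 FPKM in the Sham-vehicle rats and 265, 239, 236 and 229 FPKM in the OVX-vehicle rats, a fitted difference of 0.41 ± 0.074. Within numbers 5-8 it stood at 183, 165, 203 and 187 FPKM against 196, 219, 257 and 199 FPKM, a difference of 0.23 ± 0.073, and here the groups overlapped. The adjusted p of Tac1 was above 0.05 in 6 of 24 fits with 1 rat fewer (0.003 to 0.0653, edgeR), those without Sham-vehicle replicate 2, 3, 4 or 6 or OVX-vehicle replicate 2 or 7. The count of called genes was 1 in those fits, 3 without Sham-vehicle replicate 8, 5 without OVX-vehicle replicate 4 and 6 without Sham-vehicle replicate 1. Leaving out Sham-vehicle replicate 6 gave 1 call between OVX-TPTD and OVX-vehicle, Bdnf, a neurotrophin (log2 difference 0.37). With OVX-vehicle replicate 1 counted as a Sham-vehicle rat, C1ql1 alone was called. The interaction was not called for Tac1.

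The difference between the number sets was also described by transcript length, with no test. The median log2 difference was -0.059 in the shortest quintile of transcripts and -0.010, 0.0068, 0.022 and 0.033 in quintiles 2 to 5. A lower fitted level in numbers 5-8 was found for 73.0% of the genes in the shortest quintile and for 32.7% in the longest. All 75 ribosomal protein genes, components of the ribosome with short transcripts, had a lower fitted level in numbers 5-8 (median -0.15), though none was called. Their summed level was 15610 to 21170 FPKM (median 17680) in numbers 1-4 and 14570 to 20320 FPKM (median 15770) in numbers 5-8, and the sets overlapped. Of the 63 genes of the respiratory chain, 59 had a lower fitted level (median -0.11) and only Cox5a was called. With the trend over transcript length removed, the medians were -0.057 and -0.026. That fit called 17 genes, 16 of them among the 24. Cox5a, Cntf, Fgf7, Scand1, Fdx1, Iscu, Cdkn1a and Pcdha1 kept their direction in it but were not called. The difference was -0.063 for Cox5a, -0.10 for Iscu and -0.25 for Fgf7 in that fit.

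OVX-TPTD replicate 5 went against the pattern of the ribosomal protein genes, while its Dbp and Arntl did not go against theirs. Other clock genes were mixed in this rat. Its Por, at 21.2 FPKM, was the lowest of numbers 5-8. Its Per1, which was not called, stood at 7.71 FPKM, below the lowest of numbers 1-4 (8.16 FPKM). Its summed level of ribosomal protein genes was 20320 FPKM, where the other 11 rats of numbers 5-8 lay between 14570 and 17480 FPKM, while its Dbp stood at 14.8 FPKM and its Arntl at 5.01 FPKM. Without this rat, 105 genes were called (0.814% of 12896), 23 higher and 82 lower, among them 34 ribosomal protein genes. Leaving out any other single rat gave 12 to 24 called genes. The count was 12 without Sham-vehicle replicate 2 or OVX-TPTD replicate 7, 13 without Sham-vehicle replicate 6 or 8 or OVX-vehicle replicate 2, 14 without Sham-vehicle replicate 3 or 7 or OVX-vehicle replicate 8, and 15 without Sham-vehicle replicate 1 or OVX-TPTD replicate 3. In all 24 such fits, 12 of the 24 genes were called, namely Dbp, Tef, Ciart, Nr1d1, Nr1d2, Per2, Per3, Bhlhe40, Arntl, Adamts15, Angptl2 and Timp3.

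**Figure D4:**
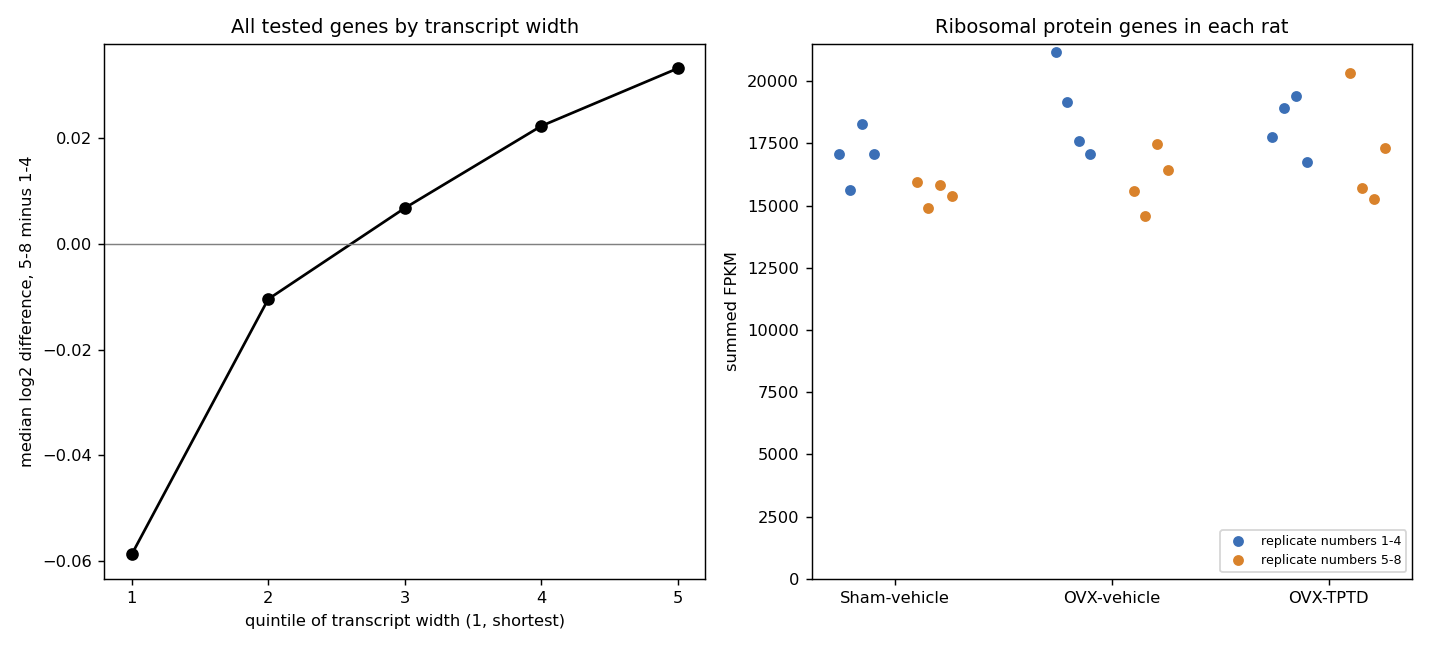
Left, median log2 difference between numbers 5-8 and 1-4 by quintile of transcript width (1, shortest; 5, longest), from -0.059 to 0.033. Right, summed level (FPKM) of the 75 ribosomal protein genes in each rat by group and replicate number, with OVX-TPTD replicate 5 at 20320 FPKM among the orange points.

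Most markers of blood and of mast cells and neutrophils had lower fitted levels in numbers 5-8, with none called and with overlapping sums. The 5 tested erythroid genes, mostly globins, had a lower fitted level in numbers 5-8 (median -0.58, 0 called), with a summed level of 71.2 to 269 FPKM (median 141) in numbers 1-4 and 57.2 to 152 FPKM (median 85.4) in numbers 5-8. The sum overlapped between the sets, and Hbb, a beta globin, stood at 19.7 to 72.2 FPKM against 16.2 to 40.0 FPKM. With the mean of the erythroid genes as a covariate 9 genes were called, all of them among the 24, namely Dbp, Arntl, Tef, Ciart, Nr1d1, Nr1d2, Adamts15, Angptl2 and Timp3, and the Dbp difference was 1.02.

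Of the 8 tested mast cell and neutrophil genes, 7 had a lower fitted level (median -0.51, 0 called), with a summed level of 9.12 to 30.9 FPKM against 11.7 to 20.99 FPKM. Schwann cell genes had a lower fitted level in 13 of 14 (median -0.12, 0 called, summed 3425 to 4900 FPKM against 3106 to 4527 FPKM), and neuron genes a higher one in 16 of 18 (median 0.066, 0 called). No list had a member without reads in every rat. The part of these cell types in the differences between the number sets was not tested beyond the fits given here.

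Lists of genes that respond to handling, stress or feeding held 0 or 1 called gene each. Over all genes tested the share called was 0.187%, so few calls are found in any list of this length. Nothing is read from these counts, and a part of handling, stress or feeding was not tested. Of 22 glucocorticoid-responsive genes only Cdkn1a was called, with 11 higher and 11 lower (median 0.041). None of 31 immediate early genes was called, with 23 higher (median 0.074). Among those with the smallest unadjusted p (edgeR), Cyr61, a matrix protein, differed by 0.61 ± 0.18 and Dusp1, a phosphatase of MAP kinases, by 0.27 ± 0.091. None of 30 heat shock genes (median -0.017), 17 genes of endoplasmic reticulum stress (median 0.030, 15 higher), 15 genes of fasting and PPARα (median -0.059), 23 genes of cholesterol synthesis (median 0.053) or 32 interferon genes was called. The interferon genes had a median of -0.0023 over all rats, and of -0.19 within Sham-vehicle, -0.26 within OVX-vehicle and 0.45 within OVX-TPTD. Of the 17 genes that the study followed by PCR, 15 passed the filter on low counts and none was called between the number sets (8 higher, 7 lower).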

How the data were processed

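According to the study's methods and the submitters' processing notes, the authors made stranded libraries of polyadenylated RNA, demultiplexed the paired-end reads with bcl2fastq 1.8.4, aligned them to the rat genome rn6 with TopHat2 2.0.14 and quantified genes with commercial software. The deposited table holds 17811 entries for 24 rats. Its estimated counts were whole, within 0.001, in 86.4% of values, and its FPKM were scaled by the authors to gene length and mapped reads. The estimated counts were rounded, filtered with filterByExpr by group and number set, and tested with edgeR 4.0.16 (TMM, quasi-likelihood, 12833 entries, Benjamini-Hochberg threshold 0.05) in R 4.3.3, with group and number set in the fit. The edgeR steps were tested on simulated data. Alternatives used DESeq2 1.42.0 and limma 3.58.1 on log2(FPKM + 0.1) or log2(FPKM + 1), other filters, no TMM, each rat left out, single groups or number sets, and the replicate number as a block. Removing the trend over transcript width and adding the erythroid mean were chosen after seeing the data. The members and the gene lists were chosen with earlier results of these data known. The text names members of the clock lists, the genes called, up to 4 genes of each stress or state list, the genes with the smallest p of the interaction, and genes called between groups. Adamts15 and the others outside the clock lists entered by the call, and Hbb and Bdnf were named after their values were seen. Start regions came from RefSeq (GRCr8), whose coordinates differ from the rn6 of the table. Replicates are separate rats, and none of the 84 library pairs within a group agreed within sampling noise. Pairs of different groups were not compared in this way.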

Additional observations from a re-analysis of the deposited data

Results flagged for a closer look

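Each gene called between the number sets or between groups, each tested clock activator and repressor, and Tmc2, Bdnf, Hbb, Nfil3, Wee1, Cyr61 and Dusp1 were examined within every group and number set of 4 rats for a rat that stood far from the other 3 by Dixon's criterion. Of 240 such sets (40 genes), 14 (5.83%) had one, where chance gives about 1 in 20, and no explanation was examined.

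In the clock genes, Dbp in Sham-vehicle replicate 4 was the highest of its 4 rats at 8.66 FPKM (the next 4.87), and Arntl in OVX-vehicle replicate 1, the rat with conflicting labels, the highest at 8.38 FPKM (the next 6.22). Nr1d1 was high in OVX-TPTD replicate 2 at 12.6 FPKM (the next 8.59), Nr1d2 in Sham-vehicle replicate 8 at 21.1 FPKM (the next 19.2) and Npas2 in OVX-TPTD replicate 5 at 0.287 FPKM (the next 0.1004). Clock was low in OVX-vehicle replicate 7 at 6.53 FPKM (the next 6.999), Per1 in OVX-vehicle replicate 5 at 8.47 FPKM (the next 14.5) and Cry2 in OVX-vehicle replicate 1 at 24.5 FPKM (the next 27.8). Outside the clock, Cx3cl1 was low in OVX-vehicle replicate 2 at 1.36 FPKM (the next 2.14) and Cntf high in Sham-vehicle replicate 3 at 66.7 FPKM (the next 54.8). Tac1 was high in Sham-vehicle replicate 1 at 191 FPKM (the next 179). C1ql1 was at 0.0436 FPKM in OVX-vehicle replicate 5 and at 0 in the other 3 rats of its set. Tmc2 was low in OVX-TPTD replicate 2 at 0.278 FPKM (the next 0.810) and Bdnf in Sham-vehicle replicate 6 at 2.55 FPKM (the next 3.76).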

How the results depend on the processing

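The 24 called genes kept their direction under every alternative run. Against 24 calls between the number sets, DESeq2 gave 44, limma on log2(FPKM + 0.1) gave 14, and the fits within Sham-vehicle, OVX-vehicle and OVX-TPTD alone gave 0, 0 and 1 (Dbp), with fewer rats. The erythroid mean as a covariate gave 9, and leaving out 1 rat gave 12 to 105. The other alternatives gave 16 to 25 calls. Against 2 calls between OVX-vehicle and Sham-vehicle, DESeq2 gave 12, limma on log2(FPKM + 0.1) gave 0, counting OVX-vehicle replicate 1 as Sham-vehicle gave 1, numbers 1-4 or 5-8 alone gave 0 each, and leaving out 1 rat gave 1 to 6. Against 0 calls between OVX-TPTD and OVX-vehicle, DESeq2 gave 2 (Bdnf and RT1-CE16) and leaving out 1 rat 0 to 1. Against 0 calls for the interaction, DESeq2 gave 1, and leaving out 1 rat gave 0 in each fit. The cause of these changes was not tested. Over all genes tested, same-numbered rats of different groups were about as alike as other rats of the same number set. Deviations of same-numbered rats correlated by -0.11 to 0.10 (median 0.026), against a median of 0.014 for other numbers of the same set. A rat correlated best with its own number in 4 of 48 comparisons, each with the 8 rats of another group, where a random pick gives 1 in 8. Such correlations cannot show whether single genes followed the number. In numbers 5-8, Per1 and Wee1 were lowest and Scand1 highest in replicate 5 of each group, as given above. How many of all genes were so ordered was not counted, so nothing is read from these 3. With the replicate number as a random block 25 genes were called between the number sets, and as a fixed block in place of the number set 1 (C1ql1) between OVX-vehicle and Sham-vehicle and 0 between OVX-TPTD and OVX-vehicle. Low counts limit Npas2, Tmc2 and C1ql1.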
